A study of Homo sapiens with 6 samples.

Results

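Ribonucleotide reductase and the enzymes that feed or drain the pool of deoxyribonucleotides (dNTPs) were followed by bulk RNA-seq in U-2 OS, a cell line from a human osteosarcoma. The group was chosen by name, with earlier results of these data known. It holds 9 genes, RRM1, RRM2, RRM2B, TYMS, TK1, DCK, DTYMK, DUT and SAMHD1, of 21447 genes in the deposited files. All 9 passed the filter on low counts, as did 14323 genes in all. The untreated group has 3 libraries, and so has the group given ionizing radiation (IR) at a dose of 4 Gy and harvested 24 h later, and no further treatment or genetic change is given for either group in the sample labels. The study calls the libraries of a group independent samples, but neither it nor the labels say whether these came from separate cultures, so the P values measure the spread between these libraries, which may be technical.

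Ribonucleotide reductase turns ribonucleotides into deoxyribonucleotides and sets the pace of dNTP supply. It joins a large catalytic subunit, RRM1, with a small subunit that carries the radical needed for catalysis. The small subunit is either RRM2, which is made in S phase and degraded in mitosis, or RRM2B, which p53 induces and which serves repair and mitochondrial DNA synthesis outside S phase.

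Of the 9 genes, 1 rose, 4 fell and 4 did not pass the test after IR. RRM2B rose 1.62-fold, whereas RRM2 fell by 29.7%, and RRM1, DCK and SAMHD1 fell by 18.0%, 18.0% and 15.3%. TYMS, TK1, DTYMK and DUT did not pass the threshold. These calls come from edgeR's quasi-likelihood test on estimated counts, at an adjusted P below 0.05. Over all genes tested, 15.5% were called higher and 14.5% lower (30.1% in either direction, beside 5 of the 9 genes), so 1 of 9 higher is near the share of all genes and 4 of 9 lower is above it. Levels are given as CPM, a gene's counts as a share of the library total after scaling by TMM. A CPM value compares a gene between libraries, but not with other genes, because longer genes collect more reads.

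Library depth was 18573309 to 22953834 estimated counts in 5 libraries and 45308792 in IR replicate 3, so that each of the 9 genes had at least 496 counts in every library. The libraries also differed in GC content, between the groups and most in IR replicate 3. The median level of GC-rich genes (at least 60.2% GC) minus that of GC-poor genes (at most 40.0%), each gene centred on its mean over the libraries, was −0.25, −0.20 and −0.34 on the log2 scale in the untreated libraries and 0.10, 0.20 and 0.50 in the IR libraries. Of the markers for the mesenchymal and osteoblast origin of the line, VIM, COL1A1 and SPARC were high, COL1A2 was at 0.977 to 2.14 CPM, SP7 was at 0 in all 6 libraries and BGLAP was under 1 CPM. RUNX2 fell from a mean of 15.8 to 12.3 CPM (edgeR adjusted P = 0.0250) and ALPL rose from 1.87 to 4.00 CPM (edgeR adjusted P = 0.00716). The summed level of these 8 markers, nearly all of it from VIM, COL1A1 and SPARC, was 5855 to 6311 CPM in untreated and 6208 to 6935 CPM in IR libraries. The summed levels of epithelial, blood and endothelial markers were at most 14.3, 17.5 and 5.11 CPM in any library, with CD3E at 0 throughout. The blood list was 7.87 to 11.1 CPM in untreated and 12.0 to 17.5 CPM in IR libraries, most of it CD68.

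RRM2B (chr8:102204502-102238961, minus strand, GRCh38) had levels of 88.3, 83.2 and 85.3 CPM without IR and of 132, 139 and 144 CPM after IR, listed here and for the other genes in the order of replicates 1, 2 and 3. All IR libraries were above all untreated ones, and the gap between the groups was wider than the spread within either. The log2 fold change was 0.69 (SE 0.06; 95% confidence interval 0.55 to 0.83), with an edgeR adjusted P of 0.000242. Among the 2227 genes called higher, RRM2B ranked at position 28 by P value but at position 444 by the size of its fold change. With an effective length offset, described further on, its log2 fold change was 0.37 and was not called.

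RRM2 (chr2:10120698-10211725, plus strand) was at 365, 358 and 395 CPM in untreated and at 267, 265 and 254 CPM in IR libraries. The IR libraries lay close together and all below the untreated ones. The log2 fold change was −0.51 (SE 0.06; 95% confidence interval −0.65 to −0.37), with an edgeR adjusted P of 0.000763, and RRM2 ranked at position 81 by P value and 512 by size among 2080 genes called lower. In bulk libraries, fewer cells in S phase and less RRM2 RNA per cell cannot be told apart.

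RRM1 (chr11:4094707-4138932, plus strand), the partner of both small subunits, was at 185, 182 and 211 CPM in untreated and at 158, 156 and 160 CPM in IR libraries. Its groups did not overlap, and most of the spread lay among the untreated libraries. Its log2 fold change was −0.29 (SE 0.07; 95% confidence interval −0.44 to −0.13; edgeR adjusted P = 0.0141). Without IR replicate 2 it was −0.28 with an edgeR adjusted P of 0.0524, past the threshold no longer.

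**Figure D1:**
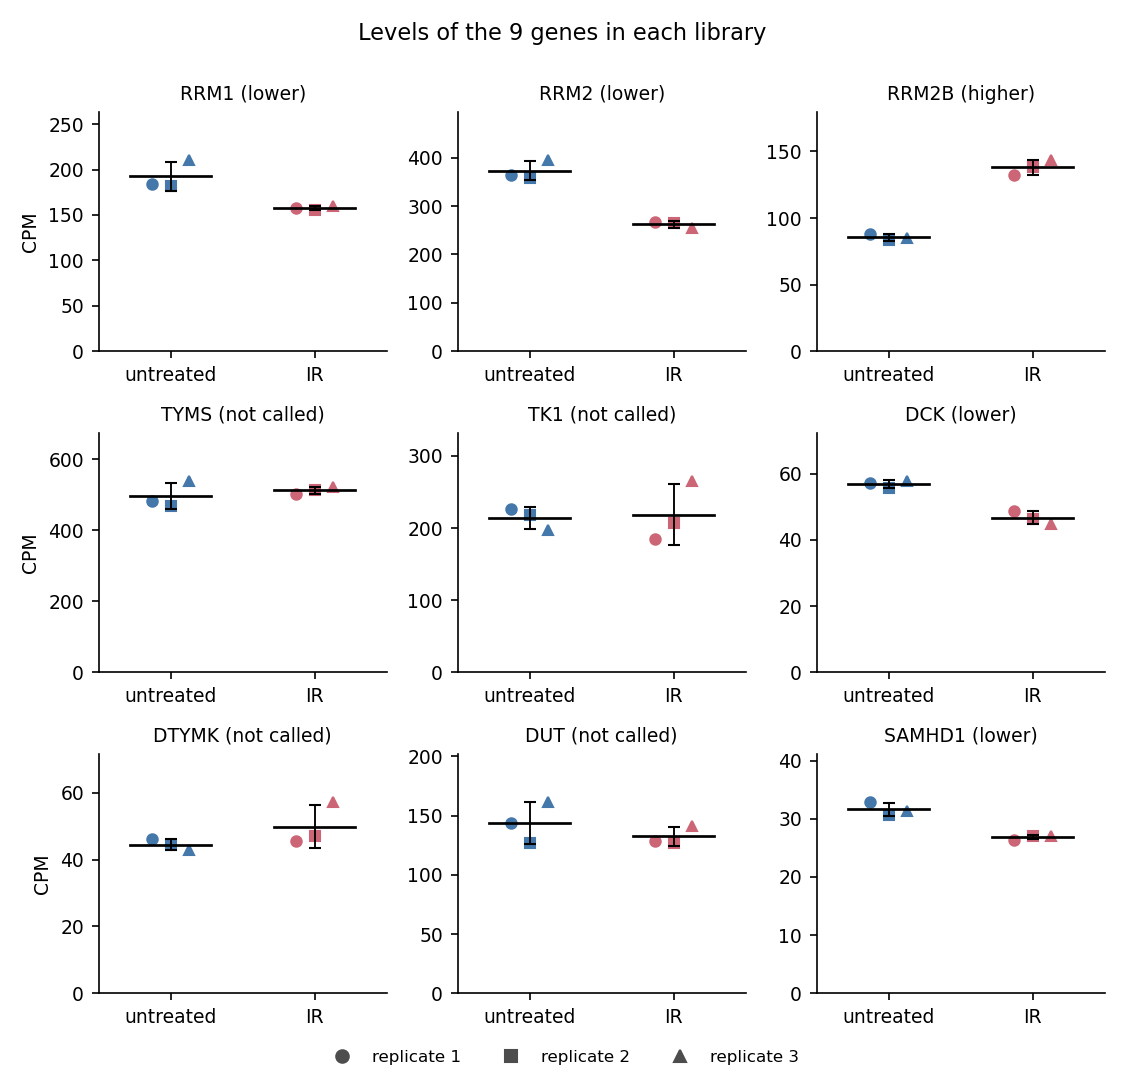
Levels of the 9 genes in CPM (y axes, from 0) in 3 untreated and 3 IR libraries, with the replicate shown by the shape of the point, the mean as a horizontal line and the SD as an error bar. The groups do not overlap for RRM1, RRM2, RRM2B, DCK and SAMHD1, and TK1 and DTYMK have their highest point in IR replicate 3.

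The genes of thymidylate supply, TYMS, TK1 and DTYMK, did not pass the test, and their difference from RRM2 was not tested. TYMS (chr18:657653-673578, plus strand), thymidylate synthase, converts dUMP to dTMP. It was at 484, 469 and 539 CPM in untreated and at 502, 514 and 522 CPM in IR libraries, so that the IR libraries fell inside the range of the untreated ones. The log2 fold change was 0.05 (SE 0.07; 95% confidence interval −0.11 to 0.20; edgeR adjusted P = 0.649), an interval that leaves room for small changes in either direction.

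TK1 (chr17:78174091-78187233, minus strand), the cytosolic thymidine kinase that salvages thymidine in S phase, was at 226, 218 and 197 CPM in untreated and at 184, 206 and 265 CPM in IR libraries. The IR libraries covered the whole range of the untreated ones and beyond it at both ends, with IR replicate 3 highest. The log2 fold change was 0.04 (SE 0.12; 95% confidence interval −0.23 to 0.30; edgeR adjusted P = 0.844), and it was −0.14 without IR replicate 3. Without untreated replicate 3 it was −0.02, so its direction turned when either of these libraries was left out.

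DTYMK (chr2:241675747-241686944, minus strand) phosphorylates dTMP to dTDP and serves both the de novo and the salvage route. It was at 46.0, 44.5 and 43.0 CPM in untreated and at 45.4, 47.0 and 57.2 CPM in IR libraries. Again IR replicate 3 stood above the others, and without it the log2 fold change of 0.17 (95% confidence interval −0.03 to 0.38; edgeR adjusted P = 0.186) was 0.04.

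DCK (chr4:70992538-71030914, plus strand), the deoxycytidine kinase that salvages several deoxynucleosides, was at 57.3, 55.7 and 57.9 CPM in untreated and at 48.8, 46.4 and 45.0 CPM in IR libraries. The groups were tight and did not overlap. Its log2 fold change was −0.29 (SE 0.07; 95% confidence interval −0.43 to −0.14; edgeR adjusted P = 0.0103).

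DUT and SAMHD1 remove nucleotides from the pool. DUT (chr15:48331011-48343373, plus strand), the dUTPase that keeps uracil out of DNA and supplies dUMP to TYMS, was at 144, 127 and 162 CPM in untreated and at 129, 127 and 142 CPM in IR libraries. The groups overlapped, and the log2 fold change was −0.12 (95% confidence interval −0.32 to 0.08; edgeR adjusted P = 0.348).

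SAMHD1 (chr20:36890229-36951893, minus strand), a triphosphohydrolase that breaks dNTPs down, was at 32.9, 30.7 and 31.4 CPM in untreated and at 26.4, 27.0 and 27.0 CPM in IR libraries. All IR libraries were below all untreated ones. Its log2 fold change was −0.24 (SE 0.07; 95% confidence interval −0.40 to −0.08), with an edgeR adjusted P of 0.0283. Without untreated replicate 1, 2 or 3, or IR replicate 2, the edgeR adjusted P was 0.116, 0.0650, 0.0572 and 0.0716, so this call rested on having all of these libraries.

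In all, 5 of the 9 genes had groups that did not overlap, and they were the same 5 that were called. Over all genes tested, 47.1% had groups that did not overlap. For each of the 5, the exact permutation test gave a two-sided P of 0.1, the smallest that 3 libraries against 3 allow.

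Fold changes moved with the GC content of genes in these libraries, and the 9 genes span much of that range. The GC content of their transcripts was 35.5% in DCK, 39.0% in RRM2B, 42.6% in RRM1, 43.6% in RRM2, 44.5% in SAMHD1, 45.1% in DUT, 46.4% in TYMS, 57.3% in DTYMK and 60.3% in TK1. The median log2 fold change of all genes within 1 percentage point of GC was −0.23 around DCK, −0.18 around RRM2B and 0.24 around TK1. RRM2B therefore stood 0.87 above the genes of like GC content and RRM2 0.41 below them, while DCK stood 0.05 below its own.

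With the GC trend of each library removed, 1 of the 9 genes was called higher and 1 lower, where 11% and 13.3% of all genes were. RRM2B then had a log2 fold change of 0.87 (edgeR adjusted P = 8.82e-05) and RRM2 of −0.41 (edgeR adjusted P = 0.000824). RRM1, SAMHD1 and DCK were at −0.17, −0.15 and −0.06, with edgeR adjusted P values of 0.0852, 0.13 and 0.462, and were not called. TK1 turned from 0.04 to −0.23 (edgeR adjusted P = 0.0675). The falls of RRM1, DCK and SAMHD1 thus passed the threshold with the GC trend left in and did not pass it with the trend removed. The trend ran in opposite directions in untreated and IR libraries, so a technical GC trend and an effect of IR cannot be told apart here.

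**Figure D2:**
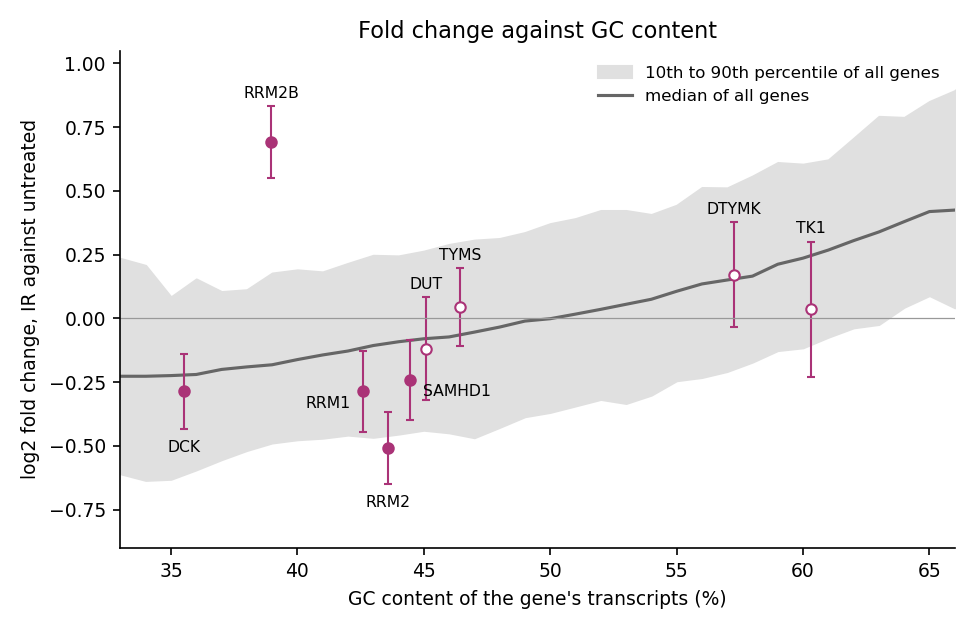
Log2 fold change of IR against untreated (y axis) against the GC content of a gene's transcripts in percent (x axis), with the 9 genes as points with 95% confidence intervals, filled where called. The line is the median and the band the 10th to 90th percentile of all genes tested in a moving window, and RRM2B lies above the band and RRM2 below it, while DCK, DTYMK and DUT lie close to the line.

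A second adjustment was made for effective length. Effective length is nominally the part of a transcript in which a read can start, as estimated by the authors' software for each library. For a gene, effective length was averaged over its transcripts, weighted by their TPM in that library. With it as an offset, RRM2 was at −0.47 (edgeR adjusted P = 0.0313) and SAMHD1 at −0.52 (edgeR adjusted P = 0.0483), and both were called. RRM2B was at 0.37 (95% confidence interval −0.08 to 0.83; edgeR adjusted P = 0.235) and was not called, and neither were RRM1 (−0.28; edgeR adjusted P = 0.184) and DCK (−0.30; edgeR adjusted P = 0.0778). Over all genes, this fit called 5.82% higher and 6.11% lower. RRM2 was the only one of the 9 genes called under all of these 3 fits. The transcript RRM2B-201 held 92.1% to 97.7% of the RRM2B counts of a library. The short RRM2B-207 (201 bases) had at most 44.4 counts in a library. Its TPM was 37.2, 33.4 and 1.57 in untreated and 44.4, 46.9 and 0 in IR libraries. RRM2B-201 was at 30.4, 29.3 and 29.8 TPM in untreated and 46.0, 46.4 and 51.8 TPM in IR libraries. How far short transcripts moved the fit with the length offset was not tested.

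**Figure D3:**
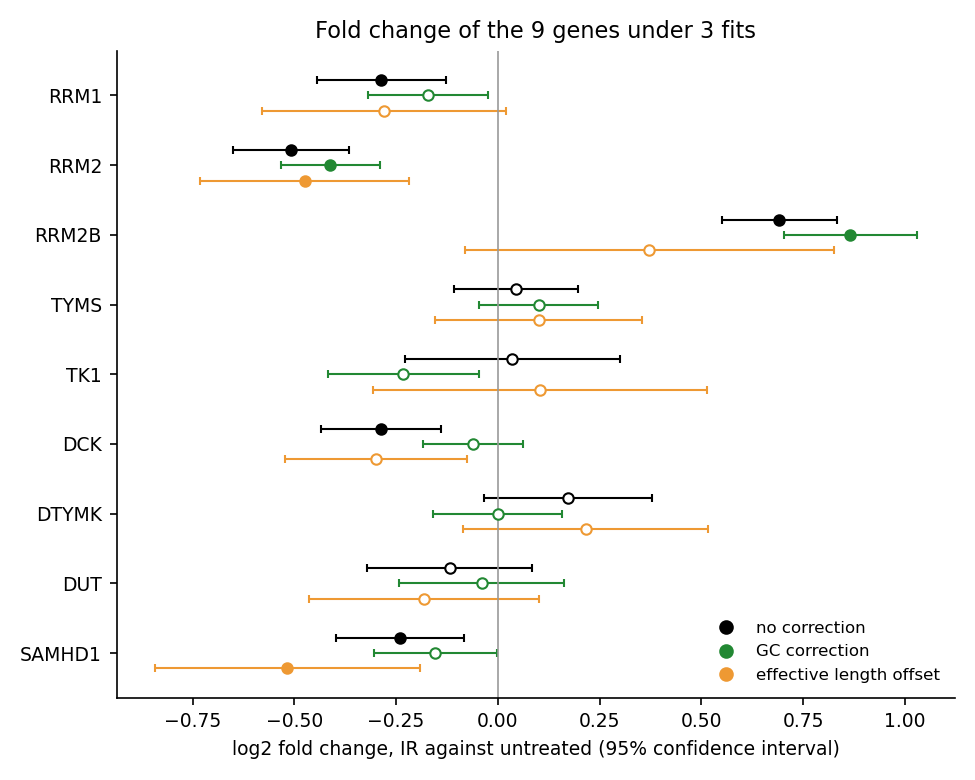
Log2 fold change of IR against untreated (x axis) with 95% confidence intervals for the 9 genes under the fit without correction, with the GC trend removed and with an effective length offset. Filled points have an adjusted P below 0.05, and the interval of RRM2B spans 0.55 to 0.83 without correction and −0.08 to 0.83 with the length offset.

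Levels can be set against each other between genes only per length. On the deposited TPM scale, which divides counts by effective length, the mean ± SD in the 3 untreated libraries was 638 ± 88.2 for TYMS, 345 ± 59.6 for DUT, 342 ± 49.1 for RRM2, 185 ± 12.7 for TK1 and 134 ± 5.90 for RRM1. It was 77.6 ± 18.8 for RRM2B, 53.6 ± 2.94 for DTYMK, 45.0 ± 0.693 for DCK and 21.4 ± 1.81 for SAMHD1. Neighbours in this order did not overlap in the untreated libraries, except DUT and RRM2.

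The order by mean TPM was the same in the IR libraries. The mean ± SD there was 663 ± 73.2 for TYMS, 295 ± 18.8 for DUT, 238 ± 23.1 for RRM2, 194 ± 69.3 for TK1 and 107 ± 19.3 for RRM1. It was 96.8 ± 18.9 for RRM2B, 60.5 ± 13.5 for DTYMK, 35.3 ± 1.84 for DCK and 14.4 ± 1.59 for SAMHD1. RRM2 overlapped with TK1, and RRM1 with RRM2B, whereas the pairs of other neighbours did not overlap.

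The place of DUT in this order depended on which of its transcripts took the reads. The canonical transcript DUT-201 held 0.391% to 6.84% of the estimated counts of DUT in a library, whereas the shorter DUT-205 held 62.0% to 77.8%. With counts divided by the annotated length of the canonical transcript, DUT moved from position 2 to position 4 of the 9 genes in both groups, behind TK1 and RRM2, and RRM2B moved from position 6 to position 8 in untreated and to position 7 in IR libraries. That length belongs to a transcript with few of the DUT counts, and by the TPM of canonical transcripts alone DUT was last of the 9 genes, at a mean of 1.51 in untreated and 3.99 in IR libraries.

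The exchange between the small subunits was measured as the level of RRM2 per RRM2B in each library. With effective length, RRM2 was 3.24, 4.15 and 6.61 times as abundant as RRM2B in untreated and 1.99, 2.29 and 3.39 times in IR libraries. The groups overlapped, since IR replicate 3 lay above untreated replicate 1, and the difference in the log2 ratio of RRM2B to RRM2 was 0.84 (exact permutation test, two-sided P = 0.2). Without untreated replicate 3 this difference was 0.56, and without untreated replicate 1 it was 1.07. Short transcripts held much of the TPM of both genes. RRM2-207 (573 bases) was at 150 to 227 TPM in untreated and 116 to 133 TPM in IR libraries. RRM2-201, with 69.0% to 77.7% of the RRM2 counts, was at 121 to 125 and 81.4 to 92.7 TPM. RRM2B-207 was at 1.57 to 37.2 TPM in untreated and 0 to 46.9 TPM in IR libraries. Their part in the overlap of the groups was not tested.

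With counts divided by a fixed annotated length, the same ratio was 6.05, 6.32 and 6.79 in untreated and 2.96, 2.80 and 2.60 in IR libraries. The groups were then far apart, with a log2 difference of 1.20 (exact permutation test, two-sided P = 0.1, the smallest possible). Counting the canonical transcripts alone gave 4.84, 5.00 and 4.94 in untreated and 2.40, 2.10 and 1.94 in IR libraries, again with a log2 difference of 1.20 and the same P in the exact permutation test. RRM2 remained the more abundant small subunit transcript in every library on all of these 3 scales.

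**Figure D4:**
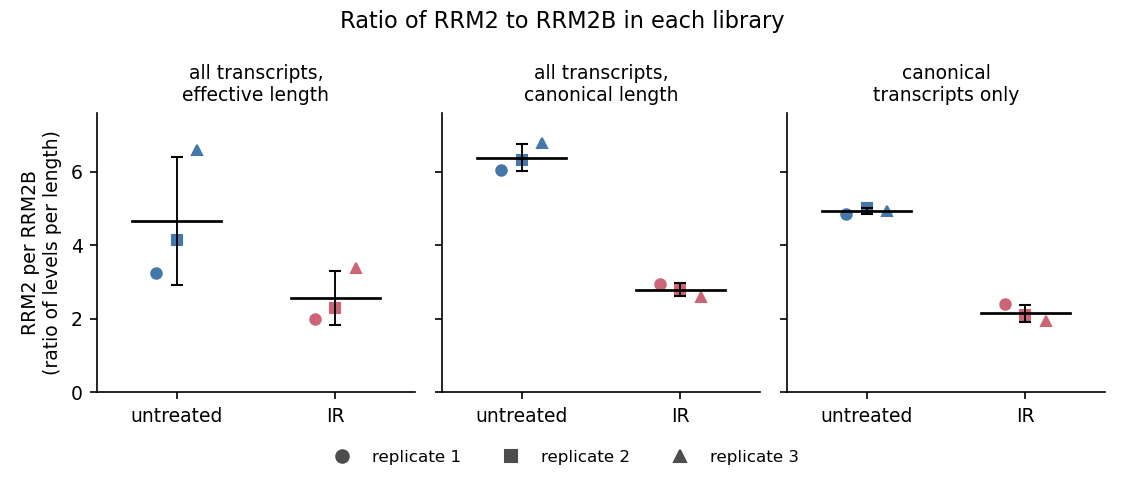
Ratio of RRM2 to RRM2B per length (y axis, from 0) in the 3 untreated and 3 IR libraries, with all transcripts over effective length, all transcripts over the annotated length of the canonical transcript, and canonical transcripts only. Points are libraries, lines are means and bars are SDs, and the groups overlap only in the left panel, where untreated values span 3.24 to 6.61.

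Expressed as a share, RRM2B made up 18.7% ± 5.25 of the small subunit TPM in untreated and 28.9% ± 5.50 in IR libraries (SD, n = 3; exact permutation test, two-sided P = 0.2). Over fixed annotated lengths the share was 13.6% ± 0.685 in untreated and 26.5% ± 1.27 in IR libraries (SD, n = 3; exact permutation test, two-sided P = 0.1). The sum of both small subunits per RRM1 over fixed lengths was 2.17 ± 0.0774 in untreated and 2.18 ± 0.0498 in IR libraries (SD, n = 3; exact permutation test, two-sided P = 0.8). For the canonical transcripts on the TPM scale, this sum per RRM1 was 1.93 ± 0.0661 in untreated and 2.75 ± 0.348 in IR libraries (SD, n = 3; exact permutation test, two-sided P = 0.1). Whether the small subunits kept step with RRM1 thus depended on which transcripts were counted, and the canonical transcript held between 55.7% and 85.0% of the RRM1 counts of a library.

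A change in the mix of transcripts was tested for each gene across 10666 genes, of which 2.67% were called at a Simes adjusted P below 0.05. None of the 9 genes was called in edgeR's test of transcript usage, and 1 of them, RRM2, was below 0.05 without adjustment. The lowest values in edgeR's test were those of RRM2 (Simes adjusted P = 0.739) and DUT (Simes adjusted P = 0.969). With libraries left out in turn, SAMHD1 was called without untreated replicate 2 (edgeR adjusted P = 0.00933) and RRM2 without IR replicate 2 (edgeR adjusted P = 0.000324). For the canonical transcripts tested as units of their own, the log2 fold change was 0.77 for RRM2B-201, −0.43 for RRM2-201 and −0.60 for RRM1-201, with edgeR adjusted P values over all transcripts of 0.13, 0.143 and 0.159. None of these 3 passed that threshold, at edgeR P values before adjustment of 6.66e-05, 0.000418 and 0.00132. The share of all transcripts called in this fit is not given here, so no conclusion is drawn from these 3.

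Promoter sequence is shown for the pair of reductase genes that fell, RRM1 and RRM2, beside the pair of thymidylate genes, TYMS and TK1, that did not pass the test. The 4 stretches are from the RefSeq table of GRCh38.p14, 5′ to 3′ on the strand of the gene, with capitals for the letters of a CCAAT box or an E2F word. RRM1 and TYMS are shown for the 60 bases before the start site, and RRM2 and TK1 for 30 bases around the CCAAT box nearest to it. The stretches of RRM2 and TK1 lie before the RefSeq start site used here, but inside exons annotated for other transcripts of these genes, whereas those of RRM1 and TYMS lie outside the exons of their own genes. The TYMS stretch also meets exons of TYMSOS, a noncoding gene on the opposite strand.
RRM1, chr11:4094625-4094684, plus strand: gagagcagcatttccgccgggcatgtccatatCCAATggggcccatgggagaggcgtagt
RRM2, chr2:10122661-10122690, plus strand: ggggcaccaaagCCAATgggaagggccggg
TYMS, chr18:657593-657652, plus strand: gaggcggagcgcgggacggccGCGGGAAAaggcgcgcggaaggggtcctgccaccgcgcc
TK1, chr17:78187081-78187110, minus strand: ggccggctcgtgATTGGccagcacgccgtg

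The CCAAT box is the binding sequence of NF-Y, which acts at many promoters of cell cycle genes, and ATTGG in TK1 is the same box on the other strand. Of the 9 genes, 8 had entries in the promoter table, and RRM2B was not among them. In the 250 bases before a start site, on both strands, CCAAT occurred in 32.0% of 35114 promoters and in 5 of the 8 genes (RRM1, RRM2, TK1, DTYMK and SAMHD1), with 3 copies before 1 of the RRM2 start sites. E2F words, searched as TTTCGCGC, TTTGGCGC, TTTCCCGC and TTTGCCGC, occurred in 2.79% of promoters and in TYMS and DUT. The words TTTGAA and TTTAAA of the cell cycle homology region occurred in 21.9% of promoters and in RRM1, RRM2, TK1 and DUT. Genes that fell and genes that did not pass the test were found among the carriers of both CCAAT and the cell cycle homology words. A gene was counted when any of its start sites carried a word, whereas the shares count each promoter separately. RRM2, TK1 and DUT had more than 1 start site, so the gene counts cannot be set directly against the shares. The matches are descriptions of letters in a window and not of bound sites.

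Other genes of nucleotide metabolism were taken in 6 lists that exclude the 9 genes and hold 70 tested genes. Of these, 18 rose and 9 fell, against 15.5% and 14.5% of all genes, with a median log2 fold change of 0.11 beside 0.01 for all genes. De novo synthesis, which builds purine and pyrimidine rings, had 17 tested genes, of which PRPS2 alone was called, at −0.24. Under the GC correction PRPS2 was at −0.14 and was not called.

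The folate cycle supplies the 1-carbon units for TYMS, and 2 of its 10 genes rose and 2 fell. MTHFD1, which interconverts folate forms, was lower at −0.28, and the folate transporter SLC19A1 and the polyglutamate synthase FPGS were higher at 0.55 and 0.37. Both of the latter were not called with the GC trend removed, at 0.16 and 0.05.

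In the list of salvage enzymes, nucleotide kinases and transporters, 8 of 16 genes rose and none fell in edgeR's test, with a median of 0.19. APRT, which salvages adenine, was at 0.59, the nucleoside transporter SLC29A2 at 0.46 and guanylate kinase GUK1 at 0.44. With the GC trend removed, 4 of 16 were called higher and these 3 were not among them, at 0.23, 0.19 and 0.09. NME1 and NME2, also called higher, are close relatives that share reads, so their separate values are uncertain.

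Enzymes of nucleotide turnover rose in 6 of 12 tested genes, and none fell in edgeR's test, with a median of 0.33. Cytidine deaminase CDA was at 0.54, ITPA, which clears inosine triphosphate, at 0.53 and DCTPP1, which clears modified dCTP, at 0.48. With the GC trend removed, 4 of 12 were called, CDA and ITPA still among them at 0.39 and 0.35, whereas DCTPP1 was at 0.33 and was not called (edgeR adjusted P = 0.0834). DCTPP1 was at 0.25 without IR replicate 3 (edgeR adjusted P = 0.0708), and its call was lost under 8 of 14 alternatives. SAMHD1 and DUT, the 2 of the 9 genes that also clear nucleotides, were at −0.24 and −0.12 in the uncorrected fit.

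The reductase is recharged by thioredoxin and glutaredoxin, and of 6 genes in these systems 2 rose and 2 fell. The mitochondrial reductase TXNRD2 was at 0.48 and glutaredoxin GLRX at 0.27, and glutathione reductase GSR was at −0.22 and the cytosolic reductase TXNRD1 at −0.18. The call of TXNRD1 stood at an edgeR adjusted P of 0.0498 and was lost under 11 of 14 alternatives.

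Of 9 regulators of the 9 genes, 4 fell and none rose in edgeR's test, with a median of −0.15. ATR, the kinase that responds to replication stress and protects RRM2 from degradation, was at −0.33, WEE1, a kinase that restrains CDKs, at −0.32, and CCNF, the ubiquitin ligase subunit that directs RRM2 to degradation, at −0.30. With the GC trend removed, ATR and WEE1 were both at −0.16 and not called, whereas CCNF was at −0.47 and was called. ATR turned to 0.24 with the length offset (edgeR adjusted P = 0.185). With that offset WEE1 was at −0.38 and was called (edgeR adjusted P = 0.0434). CCNF was then at −0.24 and was not called (edgeR adjusted P = 0.218).

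RRM2 and RRM2B were set beside the gene groups to which each is usually assigned. Both lists were chosen with earlier results of these data known, so their counts are not independent of these data. The p53 list includes CDKN1A, FAS, GADD45A and MDM2, which the paper names among the genes most induced after IR. Of 40 S phase genes other than the 9, 24 fell and none rose in edgeR's test, beside 14.5% and 15.5% of all genes. Their median log2 fold change was −0.25, and RRM2 at −0.51 lay below that median. The S phase genes with the most negative values were the repressor E2F8 at −0.87, WDR76 at −0.74 and cyclin E2 (CCNE2) at −0.71. With the GC trend removed 22 of 40 fell, and with the length offset 13 did.

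Of 27 tested p53 targets other than RRM2B, all 27 rose, beside 15.5% of all genes. Their median log2 fold change was 0.80, and RRM2B at 0.69 lay just below that median in the uncorrected fit. The highest were the stress cytokine GDF15 at 1.88, the apoptosis regulator BBC3 at 1.55 and the CDK inhibitor CDKN1A at 1.53. With the GC trend removed all 27 were called higher, with a median of 0.78 and RRM2B above it at 0.87. With the length offset 23 were, with a median of 0.80 and RRM2B below it at 0.37 and not called.

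The genes with the most similar pattern over the 6 libraries were found among 11666 genes whose mean was 100 counts or more, by the root mean square difference of centred log2 CPM. For RRM2 they were TPM1 (0.03 on the log2 scale), a tropomyosin, GAS2L3 (0.03), a cytoskeletal linker, and NCAPG2 (0.03), a condensin II subunit. For RRM2B they were PROCR (0.03), the protein C receptor, KIF7 (0.04), a kinesin of Hedgehog signalling, and RALGDS (0.04), an exchange factor for Ral. With 6 libraries in 2 groups, any gene with a step of like size between the groups scores as similar.

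Reads could be shared with overlapping genes, since the strand setting of the assignment is not given in the sources used here. The exons of TYMS share 967 bases with ENOSF1 on the opposite strand, and ENOSF1 was at 26.2 to 30.3 CPM with a log2 fold change of 0.06 (edgeR adjusted P = 0.589). DCK shares 199 bases with MOB1B on the same strand (log2 fold change −0.13; edgeR adjusted P = 0.276), and SAMHD1 shares 1068 bases with TLDC2, which was at most 0.134 CPM in any library. Processed pseudogenes of RRM2 and DUT also resemble their parent genes, and any exchange of reads with these was not tested.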

How the data were processed

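Bulk RNA-seq of 6 U-2 OS libraries was used, grouped by the sample titles. The authors trimmed reads with fastp and assigned them with kallisto to transcripts of GENCODE release 37 on GRCh38. The paper names a total RNA kit and the labels poly(A) RNA with an mRNA kit. The authors deposited estimated counts per transcript without normalization. They also deposited TPM, which divides by effective length and by the total of a library. Whether kallisto's correction for sequence bias entered the effective length is not given in the sources used here. In untreated replicate 1, SAMHD1-221 (4649 bases) had 334 counts at 5.04 TPM. The longer RRM2B-201 (4774 bases) had 1482 counts at 30.4 TPM, so effective length did not follow annotated length alone.

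Transcripts were matched to GENCODE release 44 (158711 matched; 2460 left out), and estimated counts were summed per gene, rounded, filtered by filterByExpr, scaled by TMM and tested in edgeR 4.0.16 (R 4.3.3, limma 3.58.1) by glmQLFTest with Benjamini–Hochberg adjustment over all genes. Ratios and shares were tested by exact permutation. Transcript usage was tested by diffSpliceDGE. GC trends were removed as a spline offset per library with 5 degrees of freedom. Depth was 18573309 to 45308792 counts per library. IR replicate 3 bears a mark in its deposited name that no source explains.

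The 9 genes and the lists were chosen with earlier results of these data known. Named genes were all 9 members, the 3 called genes of largest fold change per list and direction, the 3 genes most alike RRM2 and RRM2B, overlapping genes, and DUT and called genes for transcript usage. A few genes it would name are left out here. Scripts were tested on simulated data. Replicates of a group differed by more than sampling noise (chi-square per gene 3.45 or more). Alternatives were filters, DESeq2 1.42.0, a replicate block, GC and length offsets and leaving out each library. Analyses of canonical transcripts alone were added after seeing the data.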

Additional observations from a re-analysis of the deposited data

How the results depend on the processing

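The replicate numbers did not pair the libraries (correlations −0.02, 0.01 and −0.05). With a replicate block, 3 of the 9 genes fell, SAMHD1 being lost (edgeR adjusted P = 0.0688), 4 nucleotide list genes fell and 149 genes changed in transcript usage. With the block and the GC correction, 1381 genes rose, 1 of the 9 genes fell, TK1 was at −0.24 and DTYMK at −0.0071. With the GC correction alone, 1 of the 9 genes fell, TK1 was at −0.23 and DTYMK at −0.00056. With the length offset, 833 genes rose and 875 fell, 0 of the 9 genes rose and 2 fell, 9 list genes rose and 3 fell, RRM2B was at 0.37 and ATR at 0.24. The transcript usage count was 65 with at least 10 counts in every library. For canonical transcripts alone, RRM2 was at −0.43 and RRM2B at 0.77, DUT at 1.40 and SAMHD1 at 0.11, and RRM2B made up 35.5% of the small subunit TPM after IR. Under each alternative except the length offset and the canonical transcripts, RRM2 and RRM2B kept their direction and call; RRM2 also kept both with the length offset.

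With each library left out in turn, 1295 to 2114 genes rose and 1244 to 2284 fell. Of the 9 genes, 2 to 4 fell and 1 rose each time, the fewest without IR replicate 2. List genes called higher numbered 11 to 19 and lower 4 to 9, with 11 higher and 4 lower without untreated replicate 1 or 2, 5 lower without untreated replicate 3 and 4 lower without IR replicate 2. TK1 ranged from −0.14 to 0.13. Transcript usage was called for 228 to 443 genes, the most without untreated replicate 3, and for 0 to 1 of the 9 genes. The causes of these shifts were not tested. With 3 libraries per group and at least 496 counts for each of the 9 genes in a library, small changes were not resolved.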
